A study of Drosophila melanogaster with 8 samples.

Results

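The attacins, cecropins and diptericins are families of antimicrobial peptides that insects release into their hemolymph. The 10 genes described here are the attacin genes *AttA*, *AttB*, *AttC* and *AttD*, the cecropin genes *CecA1*, *CecA2*, *CecB* and *CecC*, and the diptericin genes *DptA* and *DptB*. They were taken from a list of genes of these families that are driven mainly by the immune deficiency (Imd) pathway, by symbol, with no measured value in the rule although earlier results of these data were known, and all 10 were found among the 17490 genes counted in the study.

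Reads were counted for each gene in heads of *D. melanogaster* that lacked the odorant-binding protein gene *Obp56h* (*Obp56h*-/-, an allele made by CRISPR/*Cas9* deletion) and in heads of *CSB*, the Canton S-B line in whose background the deletion was made. The 4 groups were *CSB* females, *Obp56h*-/- females, *CSB* males and *Obp56h*-/- males, each with 2 replicates. A replicate was a pool of 50 flies aged 3 to 5 days, reared on cornmeal medium with no immune challenge stated. A single deletion line was compared with a single control line, so that the effect of the deletion and any other difference between the lines cannot be told apart. The donor plasmid of the deletion carried a *DsRed* marker driven by *3XP3* between *loxP* sites, and whether the marker was still present in the flies sequenced is not given in the sources used here.

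In *Drosophila*, the Imd pathway starts when the receptors PGRP-LC and PGRP-LE bind peptidoglycan of the type found in Gram-negative bacteria, and ends with the cleavage of the NF-kappaB factor Relish, which enters the nucleus and switches on antimicrobial peptide genes. The fat body is the main source of these peptides after systemic infection, and epithelia and hemocytes make them as well. Cecropins are short helical peptides that break bacterial membranes. Attacins and diptericins are glycine-rich peptides that act mainly on Gram-negative bacteria. In flies kept without challenge these genes are generally transcribed at low levels.

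The genes lie in small clusters of neighbors. Positions are those of the BDGP6 assembly with Ensembl's annotation. *AttA* (FBgn0012042, 2R, from 14747362 to 14748215) and *AttB* (FBgn0041581, 2R, from 14749223 to 14750165) are both on the plus strand and 1007 bp apart. *AttC* (FBgn0041579) lies elsewhere on 2R, from 13393705 to 13394667, and *AttD* (FBgn0038530) on 3R, from 17625268 to 17626086. *DptA* (FBgn0004240, 2R, from 18865765 to 18866260) has a single exon, and *DptB* (FBgn0034407, 2R, from 18867391 to 18867895) follows it after 1130 bp. The 4 cecropin genes share a stretch of 3R. *CecA1* (FBgn0000276) starts at 30210874, *CecA2* (FBgn0000277) at 30212156, *CecB* (FBgn0000278) at 30213315 on the minus strand and *CecC* (FBgn0000279) ends at 30216938, with the pseudogene *Cec-Psi1* and the gene *Cec2* between them. Each of the 4 has 189 bp of annotated coding sequence without the stop codon. The neighbors are paralogs, and only unique alignments were counted. Identity between them was not computed, so how far alike stretches of *AttA* and *AttB*, or of the cecropins, affected the split of reads was not tested, and sums over neighbors are given as well.

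Values below are in CPM, in which the reads of a gene are scaled to a common library size with TMM factors, and levels are set against each other between genes only as CPM per kb of exon. The libraries held between 10127941 and 25918919 counted reads. Their floor, taken as 3 reads, was between 0.122 and 0.276 CPM, and it covers counting error only. *Obp56h* itself had 54, 90, 110 and 106 reads in the *CSB* libraries and at most 1 read in each *Obp56h*-/- library. In the first principal component of log2 CPM, which held 53.2% of the variance, replicate 1 of *CSB* females and replicate 1 of *CSB* males (scores -92.5 and -72.7) stood apart from the other 6 libraries (2.83 to 40.7). The same libraries had the highest summed level of 9 ovary and testis markers, at 10.6 and 6.65 CPM against 1.38 to 2.82 CPM in the others, and *CSB* male replicate 1 had 397 CPM of the yolk protein gene *Yp1* against 4.60 to 11.8 CPM in the other male libraries. Log2 fold changes between the genotypes are therefore also given without them.

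By the main test, edgeR's quasi-likelihood test, heads of *Obp56h*-/- flies had more transcripts of *DptA*, *AttB*, *CecA1* and *CecA2* than *CSB* heads in both sexes. Females also had more of *DptB* and *AttC*. With another tool, limma's voom, *AttB* passed an adjusted p of 0.05 in both sexes and *AttC* in females. There *DptA*, *CecA1* and *CecA2* passed in neither sex, and *DptB* did not pass in females. The diptericins differed most in females. They were near the floor of detection to a few CPM in *CSB* females and, per kb, reached about the level of *AttC*, the most abundant of these genes in *CSB*, in *Obp56h*-/- females. In 8 of the 10 genes, the lowest of the 4 *Obp56h*-/- libraries was above the highest of the 4 *CSB* libraries. The cecropins are 4 of these 8 and passed the filter on low counts only through their reads in *Obp56h*-/- flies, so they were not counted against all genes. Of the 5 genes with enough reads in *CSB*, 4 had this arrangement, which was found for 3.36% of the 13536 genes tested. The exceptions were *AttC* and *AttD*, and for *DptB* the margin was narrow, with 10.5 CPM in the lowest *Obp56h*-/- library and 10.3 CPM in the highest *CSB* library.

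**Figure D1:**
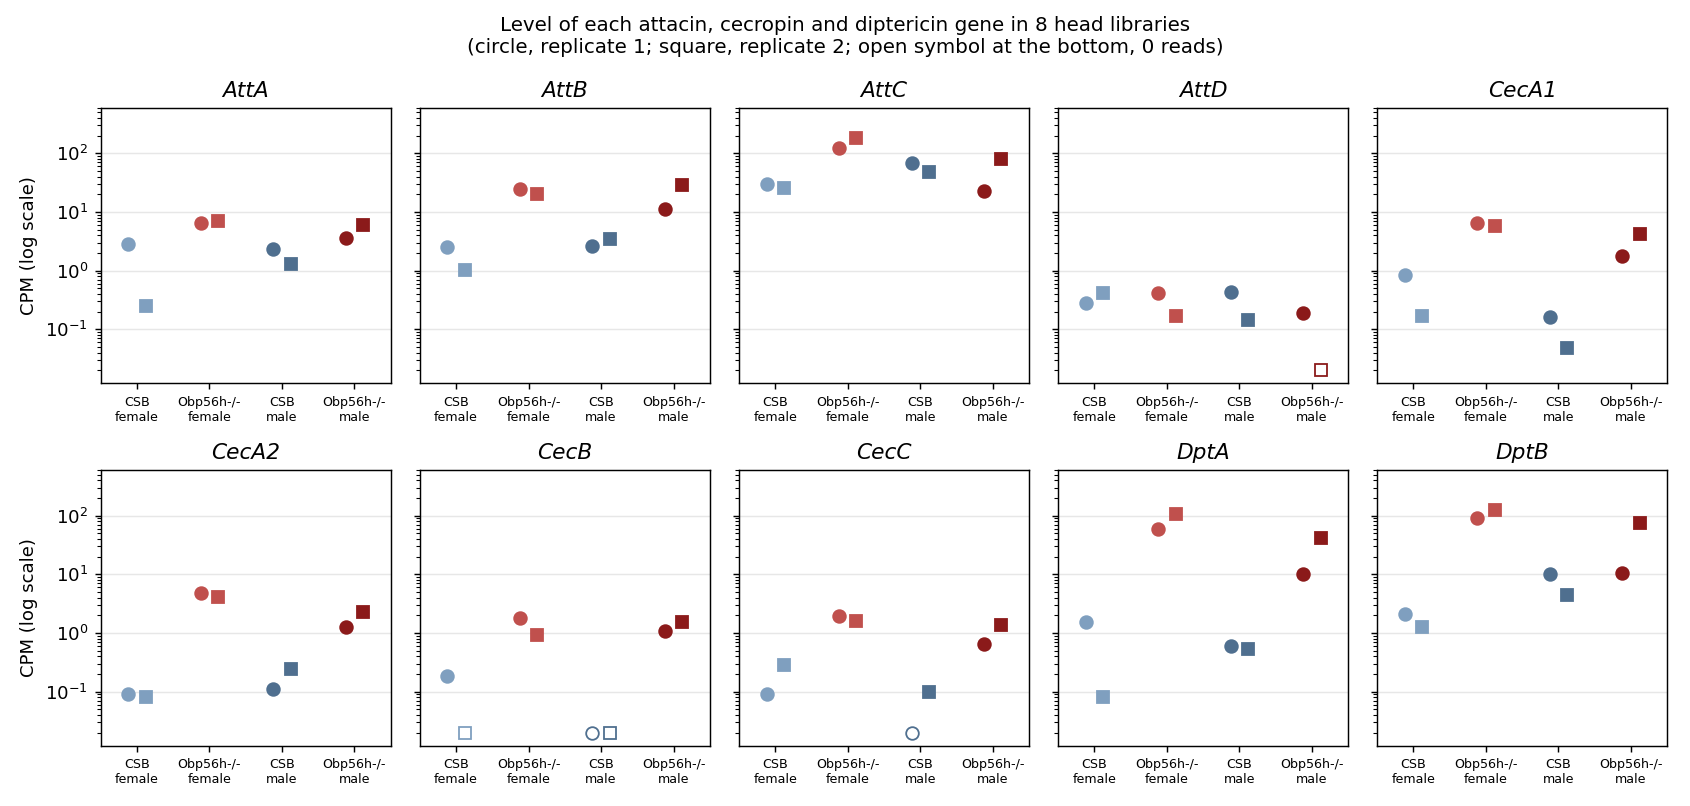
CPM on a log scale of each of the 10 genes in the 8 head libraries, with 1 panel per gene, circles for replicate 1 and squares for replicate 2, and open symbols at the bottom for 0 reads. The *Obp56h*-/- symbols lie above the *CSB* symbols in every panel but *AttC* and *AttD*, and *DptA* goes from at most 1.57 CPM in *CSB* to at least 10.2 CPM in *Obp56h*-/-.

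*DptA* encodes a diptericin. It was at 1.57 and 0.0827 CPM in replicates 1 and 2 of *CSB* females and at 58.7 and 105 CPM in *Obp56h*-/- females. In males, it was at 0.604 and 0.535 CPM in *CSB* and at 10.2 and 40.9 CPM in *Obp56h*-/-. The groups did not overlap in either sex, and the *CSB* female value of 0.0827 CPM was 2 reads. The mean rose from 0.824 ± 1.05 to 82.0 ± 33.0 CPM (SD, n = 2) in females, a log2 fold change of 7.14 ± 0.69 (SE), and from 0.570 ± 0.0492 to 25.5 ± 21.7 CPM (SD, n = 2) in males, a log2 fold change of 5.48 ± 0.68 (SE). All adjusted p are those of edgeR's quasi-likelihood test, corrected by Benjamini-Hochberg over all genes tested unless another tool is named, and here the adjusted p was 8.38e-06 in females and 1.90e-04 in males. With limma's voom *DptA* did not pass, at 8.29 in females (adjusted p = 0.195) and 5.12 in males (adjusted p = 0.418).

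*DptB*, its neighbor, encodes the second diptericin. In females it was at 2.12 and 1.28 CPM in *CSB* and at 90.6 and 127 CPM in *Obp56h*-/-. In males the *CSB* libraries had 10.3 and 4.38 CPM and the *Obp56h*-/- libraries 10.5 and 73.6 CPM. The female groups were far apart, whereas replicate 1 of the *Obp56h*-/- males was level with replicate 1 of the *CSB* males, and only replicate 2 stood clear. The log2 fold change of *DptB* was 6.10 ± 0.70 (SE) in females (adjusted p = 6.39e-05) and 2.53 ± 0.56 (SE) in males, where it did not pass (adjusted p = 0.0523). When a library is left out here and below, the group it came from holds 1 pool, which is assumed to vary like the pools of the other groups, so that these adjusted p carry no information on the spread within that group. Without *Obp56h*-/- male replicate 1 the male value was 3.34 (adjusted p = 3.31e-14), and without replicate 2 it was 0.53 (adjusted p = 0.970), so the male result for *DptB* rested on replicate 2. It also passed without either *CSB* male library (3.33, adjusted p = 3.13e-11, without replicate 1 and 2.06, adjusted p = 2.21e-08, without replicate 2) and without either *Obp56h*-/- female library (2.54 each time, adjusted p at most 0.0136).

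*AttC* encodes an attacin and was the most abundant of the 10 genes per kb in *CSB* of both sexes. It was at 30.4 and 26.0 CPM in *CSB* females and at 121 and 179 CPM in *Obp56h*-/- females. In *CSB* males it was at 68.1 and 48.0 CPM, and in *Obp56h*-/- males at 22.8 and 79.7 CPM. In females both *Obp56h*-/- libraries were above both *CSB* libraries, and in males the *Obp56h*-/- libraries lay on either side of the *CSB* libraries. The log2 fold change in females was 2.41 ± 0.37 (SE, adjusted p = 0.00136). In males it was -0.18 (95% interval from -0.91 to 0.56, adjusted p = 0.913), and its sign turned when single libraries were left out: it was 0.47 without *Obp56h*-/- male replicate 1, 0.16 without *CSB* male replicate 1, and -1.34 (adjusted p = 0.00647) without *Obp56h*-/- male replicate 2. In females, the call was lost without *CSB* female replicate 1, although the value was 2.53 (adjusted p = 0.0716). The exons of *AttC* overlap 53 bp of *CG4744* on the opposite strand, and *CG4744* was at no more than 3.96 CPM.

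*AttB* and *AttA* encode attacins that are close copies of each other. In females, *AttB* was at 2.49 and 1.03 CPM in *CSB* against 24.6 and 19.9 CPM in *Obp56h*-/-, and in males at 2.58 and 3.40 CPM against 11.3 and 29.0 CPM. The genotypes did not overlap in either sex, and the lower *Obp56h*-/- male library was again replicate 1. *AttB* rose in both sexes, with log2 fold changes of 3.82 ± 0.41 (SE, adjusted p = 2.75e-05) in females and 2.75 ± 0.37 (SE, adjusted p = 4.22e-04) in males. For *AttA*, the female pools had 2.85 and 0.248 CPM (*CSB*) and 6.53 and 6.87 CPM (*Obp56h*-/-), and the male pools 2.31 and 1.31 CPM (*CSB*) and 3.64 and 5.94 CPM (*Obp56h*-/-). The *Obp56h*-/- libraries of *AttA* were higher without overlap, but the *CSB* female pools were 11.5-fold apart. Its log2 fold change was 2.35 ± 0.60 (SE, adjusted p = 0.0733) in females and 1.41 ± 0.55 (SE, adjusted p = 0.463) in males, and neither passed. Without *CSB* female replicate 1 the female value of *AttA* was 4.73 (adjusted p = 0.00135), it also passed in females when any 1 male library was left out (2.30 to 2.38), and in males it passed without *CSB* male replicate 1 (1.92, adjusted p = 0.0157).

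Summed over *AttA* and *AttB*, so that the split of reads between the copies has no part in it, the female level was 5.34 and 1.28 CPM in *CSB* against 31.1 and 26.8 CPM in *Obp56h*-/-. The male sum was 4.89 and 4.72 CPM in *CSB* against 15.0 and 34.97 CPM in *Obp56h*-/-. Summed over *DptA* and *DptB*, females had 3.68 and 1.36 CPM in *CSB* against 149 and 232 CPM in *Obp56h*-/-, and males 10.9 and 4.91 CPM against 20.7 and 114.5 CPM. Neither sum overlapped between the genotypes within a sex.

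*AttD* encodes an attacin whose protein, unlike the others, is predicted to lack a signal peptide for secretion. It had between 0 and 10 reads in every library and was removed by the filter on low counts. Its libraries overlapped between the genotypes in both sexes, with 0.276 and 0.413 CPM (*CSB*) against 0.408 and 0.166 CPM (*Obp56h*-/-) in females and 0.440 and 0.146 CPM against 0.186 and 0 CPM in males. At this depth no difference in *AttD* was detectable.

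The 4 cecropin genes had few reads in *CSB*. In females, *CecA1* had 9 and 4 reads in *CSB* against 158 and 104 in *Obp56h*-/-, and in males 3 and 1 reads against 38 and 96. *CecA2* had 1 and 2 reads against 116 and 74 in females, and 2 and 5 reads against 27 and 51 in males. No *Obp56h*-/- library of *CecA1* or *CecA2* was as low as any *CSB* library. In CPM, the *Obp56h*-/- means were 6.10 ± 0.487 for *CecA1* and 4.42 ± 0.450 for *CecA2* in females, and 3.03 ± 1.78 for *CecA1* and 1.77 ± 0.720 for *CecA2* in males (SD, n = 2).

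*CecB* and *CecC* were lower still. *CecB* had 2 and 0 reads in *CSB* against 44 and 17 in *Obp56h*-/- in females, and 0 and 0 reads against 23 and 34 in males. *CecC* had 1 and 7 reads against 48 and 29 in females, and 0 and 2 reads against 14 and 31 in males. Both genes thus had more reads in every *Obp56h*-/- library than in any *CSB* library.

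All 4 cecropin genes passed the filter on low counts only through their reads in *Obp56h*-/- flies, so that their entry into the test already required a difference, and their calls are given as a description. *CecA1* (log2 fold change 3.86 ± 0.61 in females and 4.79 ± 0.73 in males, SE) and *CecA2* (5.59 ± 0.71 and 3.26 ± 0.63) passed in both sexes, with adjusted p of 0.00205 and 0.00208 for *CecA1* and of 2.03e-04 and 0.0191 for *CecA2*. In males, *CecA2* no longer passed without *Obp56h*-/- female replicate 1 (adjusted p = 0.101) or *Obp56h*-/- male replicate 2 (adjusted p = 0.263). Where *CSB* had 4 reads or fewer in the sum of both pools, the ratio of summed reads scaled to depth was 52.2 for *CecA2* in females (95% counting interval from 17.6 to 255), 29.6 for *CecA1* in males (11.3 to 110), 25.1 for *CecB* in females (6.66 to 212) and 19.9 for *CecC* in males (5.20 to 169). *CecB* in males, with 0 reads in both *CSB* libraries, was at least 8.34-fold higher in *Obp56h*-/- than a floor of 3 reads per library. *CecB* and *CecC* did not pass within either sex (adjusted p from 0.0689 to 0.253). The call was gained for *CecB* and *CecC* in females without either *CSB* male library (adjusted p from 0.0154 to 0.0453), for *CecB* in males when any 1 library was left out other than *Obp56h*-/- female replicate 1 and *Obp56h*-/- male replicate 2 (adjusted p at most 0.0417), and for *CecC* in males without *CSB* male replicate 2 (adjusted p = 0.0223). Summed over the 4 cecropins, females had 1.20 and 0.537 CPM in *CSB* against 14.9 and 12.4 CPM in *Obp56h*-/-, and males 0.275 and 0.389 CPM against 4.76 and 9.47 CPM.

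Of the 5 genes that pass the filter on the *CSB* libraries alone (*AttA*, *AttB*, *AttC*, *DptA* and *DptB*), 4 rose in females and 2 in males, where 0.598% and 0.259% of all genes tested were called higher. Over these 5, the log2 fold change had a median of 3.82 in females and 2.53 in males, beside -0.03 and -0.05 over all genes. With the cecropins included, as a description, 6 of the 9 genes tested rose in females, 4 in males and all 9 on average. The average of *CecB* includes its male difference, for which both *CSB* libraries had 0 reads. Averaged over the sexes, all 5 genes that pass the filter on *CSB* alone were called higher, beside 0.879% of all genes. They ranged from *AttC* at 1.12 (adjusted p = 0.0233) and *AttA* at 1.88 (adjusted p = 0.0175) to *AttB* at 3.28 (adjusted p = 5.35e-07), *DptB* at 4.31 (adjusted p = 8.81e-06) and *DptA* at 6.31 (adjusted p = 1.89e-07). For *AttC* this mean joins a female rise and a male difference near 0, and its call was lost without *CSB* female replicate 1 (adjusted p = 0.149), *CSB* female replicate 2 (0.0603) or *Obp56h*-/- male replicate 2 (0.0877). That of *CecC* (adjusted p = 0.0178) was lost without *Obp56h*-/- female replicate 1 (0.0877) or *Obp56h*-/- male replicate 2 (0.0816). With replicate 1 of both *CSB* groups left out, each *CSB* group held 1 pool, and only the log2 fold changes of these 5 genes are given. In females they were 4.73 for *AttA*, 4.43 for *AttB*, 2.53 for *AttC*, 9.86 for *DptA* and 6.41 for *DptB*. In males they were 1.89, 2.60, 0.13, 5.59 and 3.29 in the same order. Among the 5 genes that pass the filter on *CSB* alone, the *Obp56h*-/- replicates lay above the *CSB* replicates without overlap in 5 in females and in 4 in males, an arrangement found for 19.4% and 16.6% of all genes.

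**Figure D2:**
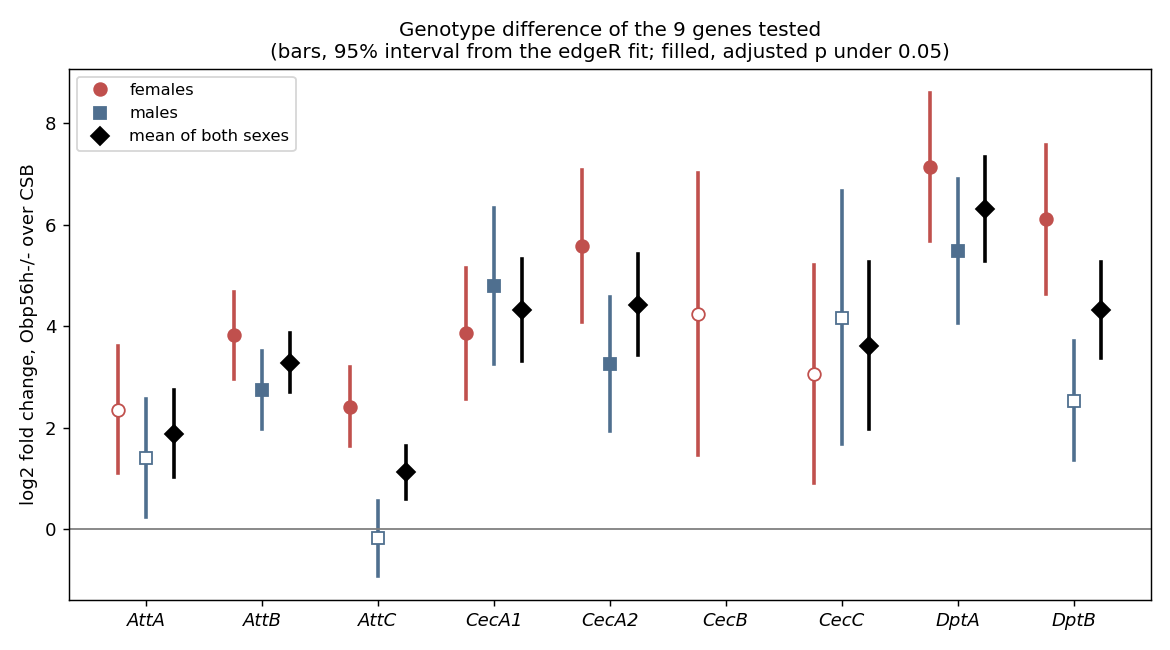
log2 fold change of *Obp56h*-/- over *CSB* for the 9 genes tested, in females (circles), in males (squares) and averaged over both sexes (diamonds), with 95% intervals worked back from the F statistic of edgeR's test and filled symbols for an adjusted p under 0.05. *DptA* is highest in females at 7.14, *AttC* in males is the one symbol below 0 at -0.18, and *CecB* is shown in females alone because *CSB* males had 0 reads of it.

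The order of the genes by level differed between the genotypes. In *CSB* females, *AttC* came first at 31.3 ± 3.42 CPM per kb (SD, n = 2), followed by *DptB* at 3.79 ± 1.32, while *AttB* (2.00), *AttA* (1.96), *DptA* (1.66) and *CecA1* (1.47) were within the spread of their replicates. In *CSB* males, *AttC* at 64.5 ± 15.8 and *DptB* at 16.4 ± 9.38 CPM per kb again came first and second. In *Obp56h*-/- females *DptB* came first at 242 ± 57.4 CPM per kb, ahead of *AttC* (166 ± 45.6) and *DptA* (165 ± 66.5). Within replicates 1 and 2, *DptB* was at 1.50 and 1.42 times *AttC* and at 1.71 and 1.33 times *DptA*. *AttC* and *DptA* did not differ beyond their spread. These 3 genes were followed by *AttB* (25.3 ± 3.76), *CecA1* (18.0 ± 1.44) and *CecA2* (12.4 ± 1.27). In *Obp56h*-/- males the same genes took the first 5 places, in the order *DptB* (93.7 ± 99.5), *AttC* (57.0 ± 44.7), *DptA* (51.4 ± 43.8), *AttB* (23.0 ± 14.2) and *CecA1* (8.94 ± 5.25), with replicates so far apart that the first 3 cannot be ranked. *AttD* came last in *Obp56h*-/- flies of both sexes.

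The makeup of the reads of the 10 genes was compared within libraries, where it does not depend on the total. Attacins took between 86.8% and 93.6% of the reads of the 10 genes in the 4 *CSB* libraries and between 45.7% and 59.9% in the 4 *Obp56h*-/- libraries. Diptericins took between 4.60% and 12.9% in *CSB* and between 32.6% and 51.6% in *Obp56h*-/-. Cecropins took at most 2.93% in *CSB* and up to 7.50% in *Obp56h*-/-, with overlap, since *Obp56h*-/- female replicate 2 had 2.75%. *Obp56h*-/- male replicate 1, whose summed level of 63.4 CPM was within the range of the *CSB* males (84.6 and 58.1 CPM), had 59.9% attacin reads (95% exact binomial interval from 57.3% to 62.5%) and 32.6% diptericin reads (30.1% to 35.1%). Its total was thus like that of a *CSB* male library, while its makeup lay nearer to that of the other *Obp56h*-/- libraries, which had 45.7% to 48.1% attacin reads.

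**Figure D3:**
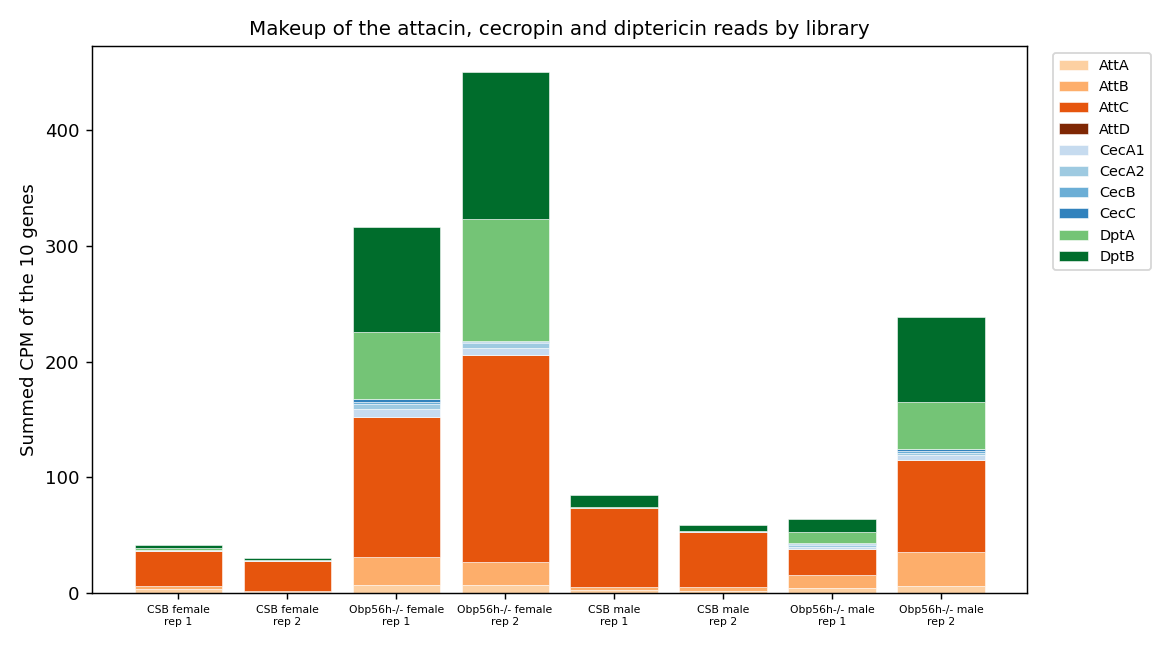
Summed CPM of the 10 genes in each library, stacked by gene, with attacins in orange, cecropins in blue and diptericins in green. The *CSB* bars are between 29.6 and 84.6 CPM and mostly *AttC*, and the *Obp56h*-/- bars are between 63.4 and 451 CPM with a large green part also in *Obp56h*-/- male replicate 1.

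The same held for ratios between *DptB* and *AttC*. Per kb, *DptB* was at 0.140 and 0.0986 times the level of *AttC* in *CSB* females and at 0.304 and 0.183 times in *CSB* males. In *Obp56h*-/- it was at 1.50 and 1.42 times *AttC* in females and at 0.920 and 1.85 times in males. The ratio of *DptB* to *DptA* was between 1.14 and 1.99 in the *Obp56h*-/- libraries and between 1.49 and 18.9 in the *CSB* libraries, where *DptA* had 2 to 17 reads. *CecA1* was between 1.43 and 1.97 times *CecA2* in the *Obp56h*-/- libraries.

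The 2 pools of *Obp56h*-/- males differed from each other in these genes more than most genes did. The CPM of replicate 2 over that of replicate 1 was 7.02 for *DptB* (95% counting interval from 6.10 to 8.11), 4.02 for *DptA* (3.46 to 4.68), 3.49 for *AttC* (3.16 to 3.86) and 2.56 for *AttB* (2.21 to 2.98). It was above 1 for all 9 genes with reads in both pools, down to 1.42 for *CecB*, whose interval included 1. Of the 9157 genes whose mean in these pools reached 50 counts, 0.535% had a ratio above 2. In *Obp56h*-/- females, *DptA* (1.79), *AttC* (1.48) and *DptB* (1.40) were likewise higher in replicate 2, but *AttB* (0.810) was lower. In *CSB* females, *DptA* and *AttA* were lower in replicate 2, at 0.0528 and 0.0869 times replicate 1. The biological coefficient of variation that edgeR estimated was between 0.235 (*AttB*) and 0.578 (*CecB*) for the 9 genes, beside a median of 0.156 over all genes. The *Obp56h*-/- male level of these genes therefore rests on pools that disagree beyond counting error, and the replicates measure only the spread between pools.

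**Figure D4:**
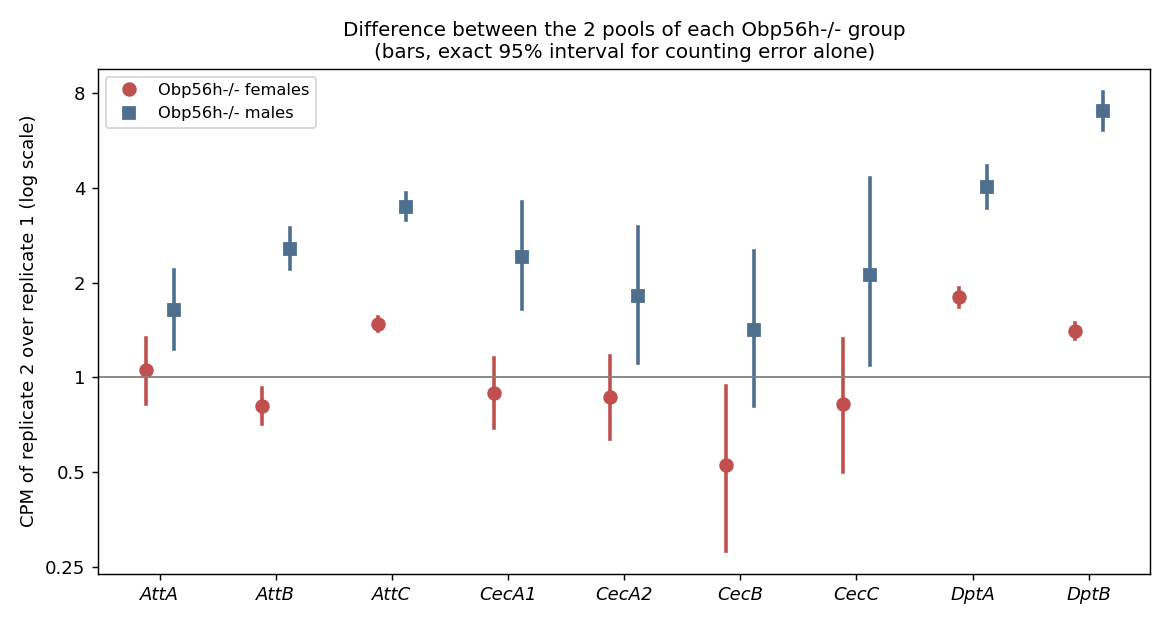
CPM of replicate 2 over replicate 1 on a log scale for the 9 genes with reads in both pools of both *Obp56h*-/- groups, females as circles and males as squares, with exact 95% intervals for counting error. The squares lie above 1 for all 9 genes and reach 7.02 for *DptB*, whereas the circles lie between 0.524 and 1.79.

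Whether the genotype difference itself differed between males and females was tested with an interaction term. None of the 9 genes passed in edgeR's quasi-likelihood test, where 0.0369% of all genes were called in either direction, and 3 had an unadjusted p under 0.05. These were *AttC* (-2.59 ± 0.50 in males relative to females, SE, adjusted p = 0.0977), *DptB* (-3.57 ± 0.89, adjusted p = 0.326) and *CecA2* (-2.33 ± 1.04, adjusted p = 1.00), each with a lower log2 fold change in males than in females. The likelihood ratio test passed 2 of them and DESeq2 and limma's voom passed 0. *AttC* passed in all 6 tests that left out 1 library other than a *CSB* female library (values from -3.75 to -1.96, adjusted p at most 0.0179), and *DptB* passed in 5 of these, the exception being without *Obp56h*-/- female replicate 1. The rise of *AttC* in females and its absence of a call in males are thus not shown to differ between the sexes by the main test, and the outcome depended on which libraries entered.

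Between the sexes within a genotype, *AttC* and *DptB* had opposite orders in the genotypes. In *CSB* they were higher in males, by 1.05 (adjusted p = 0.183) and 2.20 (adjusted p = 0.163) on the log2 scale, and in neither did the replicates overlap, an arrangement seen with males higher in 14.9% of all genes. None of the 9 genes passed here in edgeR's quasi-likelihood test, against 2.9% of all genes in either direction, and 3 had an unadjusted p under 0.05, the third being *CecA1* (-1.94). The likelihood ratio test passed 1 gene and DESeq2 0. Both *AttC* and *DptB* passed there without *Obp56h*-/- female replicate 2, *CSB* male replicate 2 or either *Obp56h*-/- male library (adjusted p at most 0.0269). In *Obp56h*-/- flies, *AttC* (-1.54, adjusted p = 0.0172) and *DptA* (-1.68, adjusted p = 0.0468) were lower in males, among 2.36% of all genes called lower, and *DptB* (-1.37, adjusted p = 0.214) and *CecA2* (-1.32, adjusted p = 0.228) did not pass. For 7 of the 9 genes both *Obp56h*-/- male libraries were below both female libraries, as for 25.5% of all genes. *AttC* no longer passed without *CSB* female replicate 1 (adjusted p = 0.0585), and *DptA* no longer without *CSB* female replicate 1 (0.0602), *Obp56h*-/- female replicate 2 (0.157) or *Obp56h*-/- male replicate 1 (0.0893), while *DptB* passed without *Obp56h*-/- male replicate 2 (-3.32, adjusted p = 7.37e-08) or either *CSB* male library (-1.36 each).

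The genes that carry the signal to these targets were read from the same fit. Of 16 genes for Imd receptors and signaling proteins, none passed in females, in males or on average in edgeR's quasi-likelihood test, and the medians of their log2 fold changes were 0.03, -0.06 and 0.01. *PGRP-LC*, the receptor of the pathway at the cell membrane, was at 0.10 in females (adjusted p = 0.817) and 0.08 in males (adjusted p = 0.907). *imd*, which encodes the adaptor that names the pathway, was at -0.03 and -0.07 (adjusted p = 0.969 and 0.938). *Rel*, which encodes Relish, was at 69.6 and 85.1 CPM in *CSB* against 108 and 106 CPM in *Obp56h*-/- in females, and at 76.1 and 74.9 CPM against 93.5 and 94.0 CPM in males. Every *Obp56h*-/- library of *Rel* was above every *CSB* library, as for 3.36% of all genes tested. The log2 fold change of *Rel*, 0.46 in females, 0.31 in males and 0.39 on average, did not pass (adjusted p = 0.198, 0.524 and 0.0587). Levels of transcripts do not show whether Relish was cleaved, which was not measured.

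Among 13 regulators of the pathway that were tested, *pirk* rose in both sexes. It encodes a feedback inhibitor that is itself a target of the pathway and draws receptors from the cell surface. In females *pirk* was at 8.20 and 5.75 CPM in *CSB* against 23.7 and 20.9 CPM in *Obp56h*-/-, and in males at 5.27 and 4.47 CPM against 15.6 and 13.5 CPM, with no overlap between the genotypes. The log2 fold change was 1.71 (adjusted p = 1.17e-04) in females and 1.58 (adjusted p = 4.21e-04) in males. *PGRP-SB1*, which encodes an enzyme that cleaves peptidoglycan, rose in females (1.08, adjusted p = 0.0125) and was at -0.32 in males (adjusted p = 0.665), and the other 11 did not pass in either sex. Of all genes, 0.598% were called higher in females and 0.259% in males.

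Of 24 other antimicrobial peptide genes tested, 5 rose and 1 fell in females, 1 rose in males and 2 rose on average. Of all genes, 0.598% were called higher and 0.436% lower in females, 0.259% higher in males and 0.879% higher on average. Those with large changes were *Dro*, which encodes drosocin, a proline-rich peptide, and *Def*, which encodes defensin. *Dro* was at 22.9 and 9.47 CPM in *CSB* against 246 and 329 CPM in *Obp56h*-/- in females, and at 47.6 and 23.4 CPM against 63.0 and 170 CPM in males, so that replicate 1 of *Obp56h*-/- males was again the lower pool. Its log2 fold change was 4.21 (adjusted p = 1.94e-05) in females and 1.71 (adjusted p = 0.0624) in males. *Def* rose in both sexes, by 2.22 (adjusted p = 0.00139) in females and 3.03 (adjusted p = 6.90e-05) in males on the log2 scale. In females, *Drsl4* (1.16, adjusted p = 0.0105) and *Drsl5* (0.87, adjusted p = 0.0135), relatives of drosomycin, and the peptide gene *Listericin* (0.85, adjusted p = 0.00487) also rose. *BomBc3*, a bomanin gene of the kind switched on by the Toll pathway, fell by 0.88 on the log2 scale (adjusted p = 0.0147). None of 15 genes for components of the Toll pathway, the other main immune pathway of the fly, passed in females, in males or on average in edgeR's quasi-likelihood test, and the medians of their log2 fold changes were -0.0077, 0.0014 and 0.03.

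**Figure D5:**
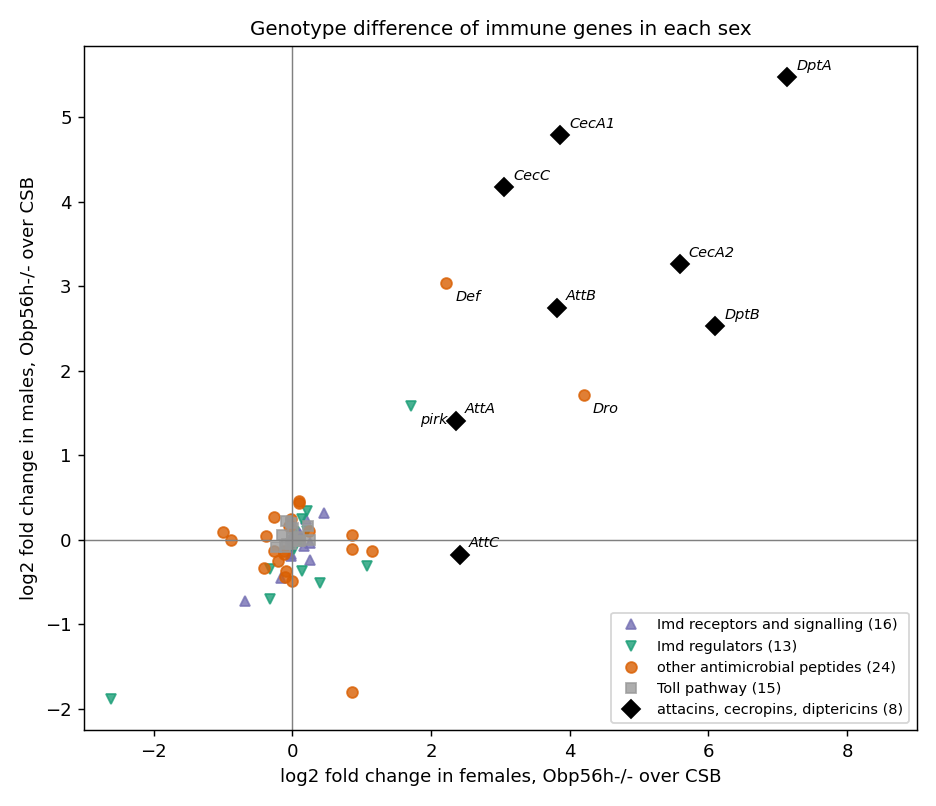
log2 fold change of *Obp56h*-/- over *CSB* in females against that in males, for the attacin, cecropin and diptericin genes tested apart from *CecB* (diamonds) and 4 lists of other immune genes. *DptA* is farthest from the origin at 7.14 and 5.48, *pirk*, *Def* and *Dro* are above 1 in both sexes, and most receptors and Toll pathway genes are close to 0.

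The genes whose log2 CPM over the 8 libraries was most like the mean standardised profile of the 9 genes were sought among the other 13527 genes tested. They were *Dro* (Pearson's r = 0.97), *Blos2* (0.97), *GstE13* (0.96), *CG15282* (0.96) and *mRpS21* (0.96). The points share library, genotype and sex, and these correlations describe 8 libraries only. Among the 9 genes, r with their mean was highest for *DptA* (0.99) and lowest for *AttC* (0.73). Each of the 9 is part of that mean, which raises its r, so these values cannot be set beside those of the other genes. *CG15282* rose in females (3.35, adjusted p = 2.41e-05) and in males (2.68, adjusted p = 3.31e-04), whereas *Blos2*, *GstE13* and *mRpS21* did not pass within either sex (log2 fold changes from 0.29 to 0.75).

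In pooled heads, more cells of a type and more RNA per cell cannot be told apart. Markers of the cells that make these peptides were therefore set beside the results. Summed over 10 fat body markers, female libraries had 58392 to 68037 CPM and male libraries 10269 to 11691 CPM, with the genotypes overlapping in both sexes. This sum is mostly yolk protein genes and *apolpp*, and other members of the list differed between the genotypes.

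The larval serum protein gene *Lsp2* was at 36.8 and 49.97 CPM in *CSB* against 207 and 107 CPM in *Obp56h*-/- in females, and at 74.3 and 27.7 CPM against 98.9 and 149 CPM in males. *Lsp1beta*, of the same kind, was at 66.7 and 68.6 CPM against 852 and 163 CPM in females, and at 355 and 304 CPM against 497 and 553 CPM in males. Every *Obp56h*-/- library of *Lsp2* was above every *CSB* library, as for 3.36% of all genes tested, and *Lsp1beta* was higher within each sex without overlap. Of the 9 fat body markers tested, these 2 rose in females (*Lsp1beta* by 2.91, adjusted p = 0.00127, and *Lsp2* by 1.85, adjusted p = 0.0104, on the log2 scale), and none passed in males (0.67, adjusted p = 0.631, and 1.29, adjusted p = 0.150). In all, 3 of the 10 fat body markers in females and 4 in males were higher in *Obp56h*-/- without overlap. In the other direction, 0 were lower without overlap in females and 2 in males. Of all genes tested, 19.4% in females and 16.6% in males were higher without overlap.

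Hemocyte and neuron markers also lay higher in part of the *Obp56h*-/- libraries. The sum of 10 hemocyte markers was 2220 and 2607 CPM in *CSB* females and 3081 and 2762 CPM in *Obp56h*-/- females. Without overlap, 6 of the 10 were higher and 1 was lower in *Obp56h*-/- females, where 19.4% of all genes were higher in this way. In males the sum was 1507 and 2012 CPM against 1716 and 1752 CPM, and none of the 10 was higher or lower without overlap. The sum of 4 neuron markers was between 4450 and 5348 CPM in the *CSB* libraries and between 5441 and 6502 CPM in the *Obp56h*-/- libraries. In this sum all 4 *Obp56h*-/- libraries were above all 4 *CSB* libraries. Taken singly, 2 of the 4 markers had this arrangement, as did 3.36% of all genes tested. The sum of 13 gut markers was between 167 and 189 CPM in females and between 302 and 362 CPM in males, with the genotypes overlapping. In each sex, 5 of the 13 were lower and 0 higher in *Obp56h*-/- without overlap. The share of all genes that were lower in this way is not given here. Of the 9 ovary and testis markers, 4 were lower and 0 higher in *Obp56h*-/- females without overlap, and 4 lower and 1 higher in males. Of 3 glia markers, 2 were higher and 0 lower in females, and 0 differed in this way in males. For 3 photoreceptor markers this was 0 in females, and 1 was lower in males. None of the markers of hemocytes, gut, ovary and testis, neurons, glia or photoreceptors passed in either sex, and no marker of these lists was at 0 in every library. The part of any of these cells in the results was not tested.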

How the data were processed

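RNA from heads was sequenced in 8 libraries, 2 pools for each sex and genotype. Per the paper's methods, the authors trimmed and filtered reads with AfterQC, screened ribosomal RNA with bbduk, aligned reads to release 6 of the *D. melanogaster* genome with GSNAP and assigned unique alignments to genes with Subread. Whether strand was used in counting is not given in the sources used here. The authors deposited unnormalized counts of reads for 17490 genes, with gene lengths, and groups were taken from the labels.

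Counts were tested with edgeR 4.0.16 in R 4.3.3. Genes were filtered with filterByExpr (minimum count 10), which left 13536. TMM factors scaled the libraries. One quasi-likelihood model held all 4 groups, with 6 contrasts and Benjamini-Hochberg adjustment across all genes (threshold 0.05). The p-values measure the spread between pools. The alternatives were a likelihood ratio test, also on GeTMM values, DESeq2 1.42.0, limma 3.58.1 (voom), other scalings and filters, each sex alone, the replicate number as a block, and libraries left out. The test was checked on simulated data. Plots were drawn with matplotlib 3.10.9.

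The genes, the lists of immune genes and markers, and the alternatives were chosen with earlier results of these data known. All 10 genes were named, and of the lists, those that passed in a genotype contrast, with *Rel*, *PGRP-LC* and *imd*. The 5 genes most correlated with the mean profile were named too. *Dro* and *CG15282* were described further, and fat body markers named, after their values were seen. A planned search for motifs in promoters was not run, and no sequence was used here.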

Additional observations from a re-analysis of the deposited data

Results flagged for a closer look

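For 3 genes the difference between males and females had opposite directions in *CSB* and in *Obp56h*-/- flies, with no overlap of the replicates in either genotype. How many of all genes had both orders at once was not counted. Of all genes, 14.9% were higher in *CSB* males and 25.5% were lower in *Obp56h*-/- males without overlap. *AttC* was higher in males by 1.05 on the log2 scale in *CSB* and at -1.54 in *Obp56h*-/-. *CecA2* was at 1.01 in *CSB*, where it had 1 to 5 reads in each library, and at -1.32 in *Obp56h*-/-. *DptB* was at 2.20 in *CSB* and at -1.37 in *Obp56h*-/-. The interaction test, which compares these differences directly, did not pass for any of the 3 (edgeR's quasi-likelihood test, adjusted p = 0.0977, 1.00 and 0.326).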

How the results depend on the processing

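The directions of the 9 genes tested in the genotype comparisons were kept under every alternative, except *AttC* in males (-0.18). It was 0.16 without *CSB* male replicate 1, 0.47 without *Obp56h*-/- male replicate 1, 0.13 without replicate 1 of both *CSB* groups and 0.77 without replicate 1 of both male groups, a choice made after the data were seen, and it went down to -1.34 without *Obp56h*-/- male replicate 2. *AttB* in females passed under all 21 alternatives.

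The number of genes that rose is given as a description, since the cecropins passed the filter only through their reads in *Obp56h*-/- flies. With the cecropins included, it was 6 in females, 4 in males and 9 on average. It was 3, 1 and 6 with limma's voom and 6, 5 and 8 with DESeq2. The likelihood ratio test gave 8, 7 and 9 on counts and on GeTMM values, and leaving out the filter gave 8, 8 and 9. The share of all genes called in either direction moved as well, from 1.03%, 0.502% and 1.93% in the main test. With voom it was 0.968%, 0.628% and 1.96%, and with DESeq2 1.74%, 0.887% and 6.29%. The likelihood ratio test called 2.13%, 1.25% and 8.45% on counts and 1.45%, 1.15% and 5.39% on GeTMM values. Without a filter it was 2.5%, 1.68% and 5.77%. With at least 10 counts in every library the number of genes that rose was 3, 1 and 2, since only 3 were then tested. With each sex on its own it was 9 and 1, beside 2.84% and 0.234% of all genes called. In males *DptA* alone then passed edgeR's quasi-likelihood test (adjusted p = 0.0373). *AttB*, *CecA1* and *CecA2* did not (adjusted p = 0.0713, 0.0905 and 0.239). Numbers with 1 library left out are not compared here, since 1 group then holds 1 pool.

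Shares of all genes called are given in brackets. For the interaction, 0 passed in the main test (0.0369%), and 2 passed with the likelihood ratio test (0.222%) and without a filter (0.421%). Between the sexes in *CSB*, 0 passed (2.9%), against 1 with the likelihood ratio test (3.62%) and 3 without a filter (3.57%). In *Obp56h*-/-, 2 passed (3.19%), and 0 passed with DESeq2 (3.72%), library size alone (2.76%) or a threshold of 0.01 (1.67%). There 1 passed with RLE factors (3.32%) or at least 10 counts (4.42%), and 5 with voom (8.58%). The causes were not tested.

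The replicate numbers did not pair the pools of the genotypes (correlation of deviations 0.07 in females and 0.04 in males), but same-numbered *CSB* pools of the 2 sexes deviated together (0.53). With the number as a block, 7, 6 and 9 genes rose, cecropins included and as a description. There 2 passed for the interaction, 2 between the sexes in *CSB* and 3 in *Obp56h*-/-. The shares of all genes called were then 1.64%, 0.946%, 3.87%, 0.133%, 3.35% and 3.55%, in the same order.

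Library size alone moved the median log2 fold change of all genes from -0.03 to -0.14 in females and from -0.05 to -0.14 in males, and the genes called higher and lower from 81 and 59 to 44 and 47 in females and from 35 and 33 to 21 and 33 in males. GeTMM values gave 62 and 94 in males. Over all alternatives, 64 to 529 genes were called in females (140 in the main test) and 28 to 769 in males (68). Depth limits *AttD* and the cecropins in *CSB*.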

Other observations

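Genes next to the peptide genes had few reads. The pseudogene *Cec-Psi1* had at most 1 read in each library and *Cec2* at most 5. *CG43109*, whose exons overlap those of *DptB* by 48 bp on the opposite strand, was between 0.583 and 1.84 CPM in all libraries. *Anp*, which encodes the peptide andropin of the male reproductive tract, had at most 7 reads in each library.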
